A study of Arabidopsis thaliana with 8 samples.

Results

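Rosette leaves of Arabidopsis thaliana that had no iron supply were compared with and without copper, to see which transcripts respond to copper removal once iron is already missing. The comparison set the 2 libraries from plants lacking both metals against the 2 libraries from plants lacking iron alone, 4 of the 8 libraries in the series. All plants were of the accession Col0, without a transgene or mutation in the labels. They were kept on soil for 12 d, moved to diluted Hoagland solution with 1 µM CuSO4 for 10 d, and then treated for 10 d. The labels also give a plant age of 20 d, which is less than the sum of these periods, and the difference could not be settled. Double deficiency plants received neither CuSO4 nor FeEDTA and were given 10 µM bathocuproinedisulfonic acid, a copper chelator. Iron deficiency plants received no FeEDTA and kept their CuSO4. Copper deficiency plants received no CuSO4 and the same chelator at 10 µM, with iron, and control plants kept the full solution. The chelator was therefore part of both treatments without copper, and copper removal and the chelator cannot be told apart. Whole rosettes were taken 4 h after the lights came on, so every value is a mean over leaf cell types. In such bulk samples fewer cells of a type and less RNA per cell cannot be told apart.

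Copper and iron share many places in a leaf. Copper sits in plastocyanin, in cytochrome c oxidase and in the copper/zinc superoxide dismutases CSD1 and CSD2, while iron serves the photosystems, the iron superoxide dismutase FSD1 and the respiratory chain. When copper runs short, the transcription factor SPL7 turns on copper uptake transporters, FSD1 and microRNAs such as miR398 that remove messages of copper proteins, so that the iron enzyme can replace the copper enzymes. When iron runs short, basic helix-loop-helix factors of subgroup Ib and the small IMA peptides mark the leaf response, and ferritin messages are low.

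In iron-starved leaves copper removal was accompanied by higher transcript levels of 130 genes, led by the glutaredoxin family gene AT3G21460 and the transcription factor ORA47, and by lower levels of 11 genes, led by the zinc transporter ZIP4. Levels are FPKM, fragments scaled for transcript length and library depth, and differences are on the log2(FPKM + 1) scale, which understates the change of low genes. Most weight was given to nuclear genes on chromosomes 1 to 5 with a span of at least 300 bp and a value above 0 FPKM in all 8 libraries. There were 19822 of these weighted genes, and 17242 passed the filter of 1 FPKM in at least 2 libraries. Of these 17242 genes, 141 were called in limma's test with Benjamini-Hochberg adjustment at 0.05 (0.818%). In double deficiency 130 were higher than in iron deficiency (0.754%) and 11 were lower (0.0638%). The median log2 difference was 1.05 among the genes called higher, with a range of 0.48 to 2.63, and -0.97 among those called lower, with a range of -1.61 to -0.66. Of the higher genes 70, and of the lower ones 4, differed by at least 1 on the log2 scale. In all 141 called genes both double deficiency libraries lay on one side of both iron deficiency libraries. The same separation held for many genes without a call, with double deficiency above iron deficiency in 7764 genes (45%) and below it in 2247 genes (13%). At the threshold itself, AT3G53890 was just inside (0.64 ± 0.10, adjusted p 0.04996) and AT2G09990 just outside (0.53 ± 0.08, adjusted p 0.0502, limma). Of the 141 genes, 27 overlap another entry, and reads of an overlap cannot be assigned in unstranded libraries.

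These counts leaned on individual libraries and on the scaling. Without double deficiency library 1 or 2, 4 and 3 genes were called higher and 0 and 0 lower. Without iron deficiency library 1 or 2 the counts were 7 and 41 higher, and 1 and 0 lower. Leaving out a control library gave 45 higher in either case and 5 lower, and leaving out a copper deficiency library gave 91 higher, with 11 or 9 lower. Of the 28 called genes that are named for their rank or as list members, 25 and 26 lost the call without double deficiency library 1 or 2, and 24 and 19 without iron deficiency library 1 or 2. The losses numbered 14 without either control library and 8 without either copper deficiency library. AT3G21460 kept its call in each of these 8 fits. The median over all 19170 genes tested was 0.15, that is, the typical gene read higher in double deficiency. Median-ratio scaling of the FPKM values moved that median to 0.01 and called 54 weighted genes higher and 42 lower, a share higher of 56.2% against 92.2% as deposited. Quantile normalization gave 49.7% higher. Of the 130 higher genes, 54 were also called with median-ratio scaling, as were all 11 lower genes.

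The libraries themselves were alike in number of detected genes, with 18395 and 18048 genes at 1 FPKM or more in double deficiency against 17951 and 17950 in iron deficiency. Pearson's r across genes was 0.989 between the double deficiency libraries and 0.989 between the iron deficiency libraries, against 0.978 to 0.981 between the groups. Nuclear protein-coding genes took 75.1% and 78.4% of the summed FPKM in double deficiency, against 69.1% and 75.3% in iron deficiency, and ribosomal RNA took 2.62% and 2.68% against 5.94% and 1.66%. The first iron deficiency library therefore stood apart in its ribosomal RNA share, and the part of this in the results was not tested. Mesophyll markers summed to 19920 and 22131 FPKM in double deficiency and to 19255 and 23170 FPKM in iron deficiency, with none of the 5 at 0. The 5 were all below the median of all genes tested and none was called. Markers of guard cells summed to 1627 and 1603 FPKM against 2056 and 2394 FPKM, those of phloem to 223 and 228 FPKM against 203 and 251 FPKM, and those of dividing cells to 69.2 and 76.9 FPKM against 56.5 and 62.5 FPKM. Flower markers summed to 7.75 and 8.90 FPKM in double deficiency against 3.89 and 5.97 FPKM in iron deficiency, and root markers to 44.7 and 26.6 FPKM against 35.6 and 21.5 FPKM, almost all of it PYK10. Guard cell, dividing cell and flower sums did not overlap between the groups, and their part in the results was not tested. A sum follows its most abundant members. Of the 7 guard cell markers tested, 2 had double deficiency below iron deficiency without overlap and 1 had it above, and the median was -0.04. Of 6 dividing cell markers 4 were apart above and 0 below, and of 4 tested flower markers 2 and 0.

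**Figure D1:**
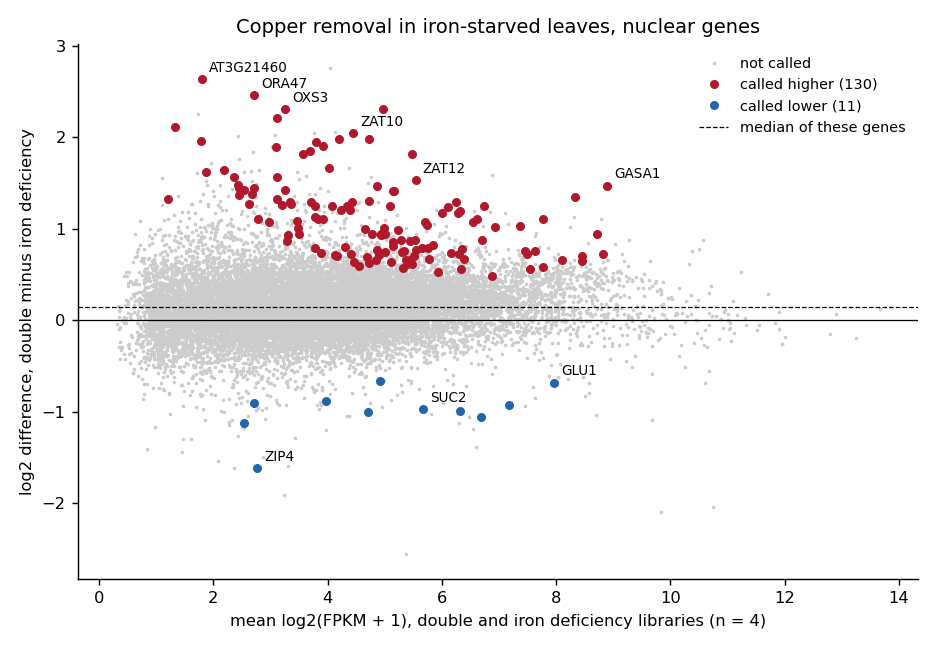
Log2 difference of double minus iron deficiency (vertical axis) against the mean log2(FPKM + 1) of the 4 libraries compared (horizontal axis), one point per weighted nuclear gene. Red points are the 130 genes called higher and blue points the 11 called lower, the dashed line is the median of 0.15, and called genes are found at low and at high expression levels.

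The largest rise was in AT3G21460, a glutaredoxin family gene on chromosome 3 (7557297 to 7557969). Glutaredoxins are small thiol enzymes that reduce disulfides with glutathione. It stood at 7.59 and 7.79 FPKM in double deficiency and at 0.302 and 0.507 FPKM in iron deficiency. With iron it stood at 23.5 and 19.2 FPKM in copper deficiency and at 19.6 and 18.4 FPKM in the control. Iron deficiency leaves were thus the lowest group, and double deficiency leaves lay between them and the leaves with iron. The difference of double minus iron deficiency was 2.63 ± 0.15 (SE, 2 libraries each) with an adjusted p of 0.000764 (limma), and the adjusted p stayed between 0.00237 and 0.0193 when any library was left out. The thioredoxin superfamily gene AT3G62930 was also lowest in iron deficiency, at 5.18 and 6.4 FPKM in double deficiency, 0.571 and 0.937 FPKM in iron deficiency and 4.29 to 5.17 FPKM with iron (1.96 ± 0.18, adjusted p 0.00791). AT3G55646, for which the reference gives only the short name TPRXL, read 4.18 and 4.2 FPKM in double deficiency against 0.408 and 0.0307 FPKM in iron deficiency (2.11 ± 0.27, adjusted p 0.0277). Its levels with iron were higher again, from 6.15 to 10.8 FPKM. AT3G21460 and AT3G55646 belong to 9 of the 130 rises whose double deficiency mean lay between iron deficiency and control, and in the other 121 it was above both.

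Transcription factors made up much of the rest of the ranking. ORA47, an AP2-type factor that activates jasmonate synthesis genes, stood at 12.7 and 16.4 FPKM in double deficiency and at 1.93 and 1.68 FPKM in iron deficiency, while copper deficiency and control libraries spanned 2.34 to 3.81 FPKM. Both double deficiency libraries were above the other 6 (2.46 ± 0.21, adjusted p 0.00545, limma). ZAT10, a zinc finger protein induced by many stresses, read 45.2 and 41.4 FPKM in double deficiency against 8.44 and 11.1 FPKM in iron deficiency, and 3.57 to 4.51 FPKM with iron. Its levels formed steps, lowest with iron, higher without iron and highest without both metals (2.05 ± 0.17, adjusted p 0.00571). TEM1, a repressor of flowering with AP2 and B3 domains, read 37.9 and 33.0 FPKM in double deficiency against 7.75 and 8.67 FPKM in iron deficiency, and the iron deficiency values were within the 7.22 to 9.43 FPKM of the leaves with iron (1.98 ± 0.15, adjusted p 0.00433).

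The other large rises were in genes of varied annotation. OXS3, named for oxidative stress tolerance, read 19.0 and 21.5 FPKM in double deficiency and 2.71 and 3.95 FPKM in iron deficiency, against 2.01 to 3.08 FPKM with iron (2.31 ± 0.19, adjusted p 0.00497, limma). HSPRO2, named after a sugar beet nematode resistance gene, read 51.1 and 52.4 FPKM against 11.7 and 12.9 FPKM (1.99 ± 0.15, adjusted p 0.0036). CAF1a, a deadenylase subunit that shortens messenger RNA tails, read 20.5 and 15.0 FPKM against 3.30 and 2.73 FPKM (2.21 ± 0.30, adjusted p 0.0333, or 0.0634 with median-ratio scaling, where it was not called). In each of these both double deficiency libraries were above both iron deficiency libraries. AT5G21940, annotated as similar to a histidine kinase, read 62.7 and 74.6 FPKM in double deficiency against 12.8 and 13.1 FPKM in iron deficiency (2.31 ± 0.20, adjusted p 0.00577). Its entry overlaps that of PAA2, a plastid copper ATPase gene.

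**Figure D2:**
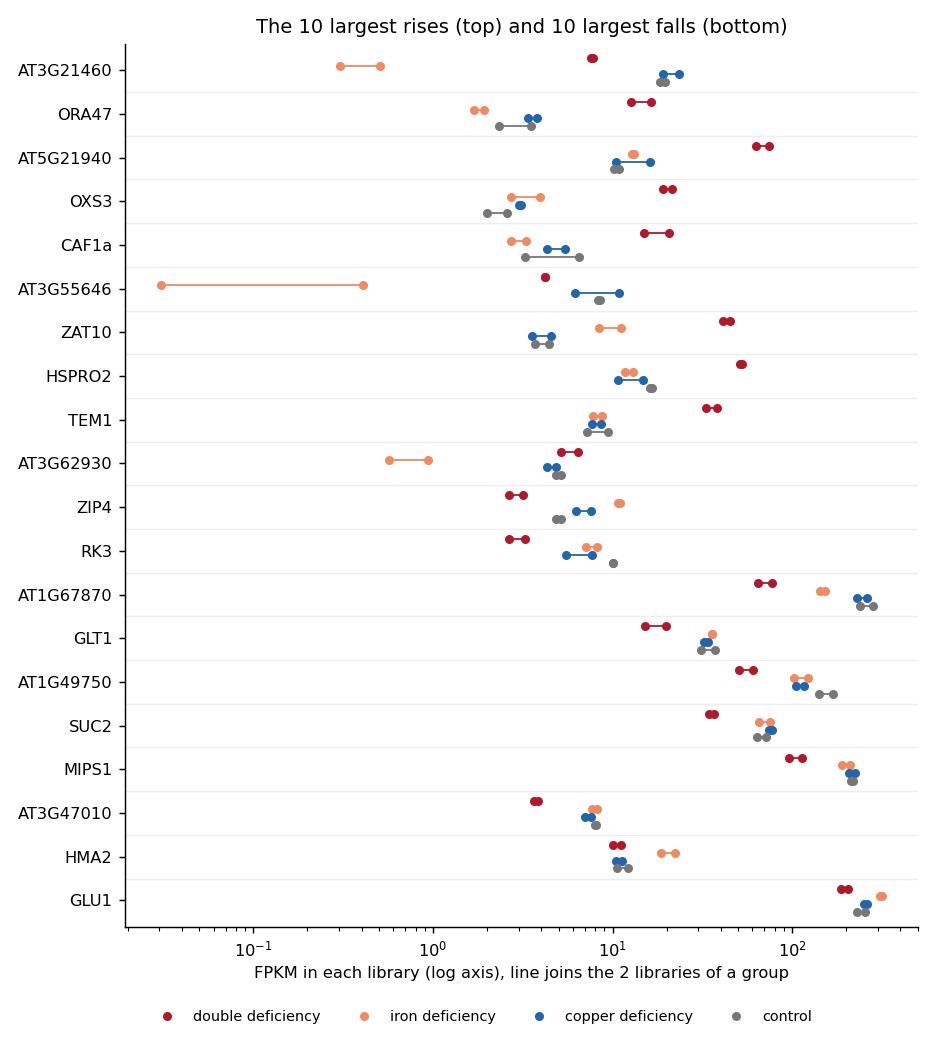
FPKM of each library (horizontal log axis) for the 10 genes with the largest rise (top) and the 10 with the largest fall (bottom) in double against iron deficiency, one point per library and a line joining the 2 libraries of a group. Red double deficiency points lie apart from the orange iron deficiency points in all 20 genes, and in AT3G21460, AT3G55646 and AT3G62930 it is the iron deficiency group that lies far below the other 3.

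The largest fall was in ZIP4, a plasma membrane transporter that takes up zinc. It stood at 2.64 and 3.15 FPKM in double deficiency and at 11 and 10.8 FPKM in iron deficiency, with 7.61 and 6.22 FPKM in copper deficiency and 4.85 and 5.16 FPKM in the control. Iron deficiency was the highest group and double deficiency the lowest, with no overlap (-1.61 ± 0.14, adjusted p 0.0072, limma). ZIP4 belongs to the genes that the bZIP factors bZIP19 and bZIP23 switch on when zinc is scarce, through an element with the core TGTCGACA. HMA2, an ATPase that pumps zinc out of cells towards the xylem, read 11.2 and 10.0 FPKM in double deficiency and 18.6 and 22.2 FPKM in iron deficiency. Copper deficiency and control libraries lay at 10.5 to 12.2 FPKM, so iron deficiency was the raised group and double deficiency was near the level with iron (-0.88 ± 0.13, adjusted p 0.0455). Without any one of the 8 libraries the adjusted p of HMA2 was 0.071 or more. Over the zinc and metallothionein list of 17 genes, 13 were tested, 2 were called lower and none higher. Of all genes tested, 0.198% were called lower and 0.939% higher. The list median was -0.22 against 0.15 for all genes tested. IRT3, a zinc and iron transporter, read 2.87 and 3.30 FPKM in double deficiency against 5.93 and 6.75 FPKM in iron deficiency (-0.84 ± 0.22, adjusted p 0.112), a separation that did not pass the test. ZIP1 was listed at 0 in both double deficiency libraries and in 1 iron deficiency library, with 7.1 FPKM in the other (adjusted p 0.58), and no fold is given for it.

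The 300 bases before the annotated start of ZIP4 (chr1:3667140-3667439, minus strand) and of IRT3 (chr1:22447300-22447599, minus strand) are printed because they are the windows of the zinc list that hold the palindrome TGTCGACA, in 2 of 17. Letters come from the TAIR10.1 reference of RefSeq, 5′ to 3′ on the gene's strand, with the palindrome in capitals.
ZIP4: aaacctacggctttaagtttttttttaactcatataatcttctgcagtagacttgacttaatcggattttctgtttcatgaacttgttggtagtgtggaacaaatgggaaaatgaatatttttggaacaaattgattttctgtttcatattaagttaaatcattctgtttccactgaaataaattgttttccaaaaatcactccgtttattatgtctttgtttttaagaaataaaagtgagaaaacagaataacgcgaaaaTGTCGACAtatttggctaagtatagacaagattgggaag
IRT3: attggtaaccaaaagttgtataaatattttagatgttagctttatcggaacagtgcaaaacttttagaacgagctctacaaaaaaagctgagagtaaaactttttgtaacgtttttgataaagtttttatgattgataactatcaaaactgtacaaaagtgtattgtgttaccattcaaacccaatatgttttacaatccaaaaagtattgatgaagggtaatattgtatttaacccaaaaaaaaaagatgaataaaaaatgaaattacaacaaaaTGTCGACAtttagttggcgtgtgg
The palindrome begins 39 bases before the start of ZIP4 and 24 bases before the start of IRT3, and it reads the same on both strands. It was found in 59 of 17240 windows of this length (0.342%), in 1 of the 11 genes called lower and in 0 of the 130 called higher. Other motifs were searched on both strands in the same windows. CGCGTT, the core of an element of rapid stress responses, was in 4.62% of the windows of higher genes against 3.3% of all windows, and GCCGCC, the core bound by ethylene response factors, in 3.85% against 2.29%. GTAC, the core bound by SPL7, was in 39.2% against 40.2%, and the G-box CACGTG was in 6.92% against 8.03%. In the windows of the 11 lower genes CACGTG was in 4 (36.4%), GTAC in 4 (36.4%), and CGCGTT and GCCGCC in 1 each (9.09%). A match describes letters in a window and is not evidence of binding.

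The glutamate synthase genes GLU1 and GLT1 and a sucrose transporter were among the 11 falls, without a test of these as groups. GLU1, the ferredoxin-dependent glutamate synthase of leaves, stood at 186 and 204 FPKM in double deficiency and at 309 and 317 FPKM in iron deficiency, with 229 to 260 FPKM in the leaves with iron (-0.68 ± 0.09, adjusted p 0.0338, limma). GLT1, the NADH-dependent form, read 19.9 and 15.2 FPKM in double deficiency and 35.9 and 35.8 FPKM in iron deficiency (-1.0 ± 0.15, adjusted p 0.0418). Neither pair overlapped. Both entries share bases with a neighbour. ACBP1, which overlaps GLT1, was listed at 20.2 and 20.4 FPKM in double deficiency and at 0 in both iron deficiency libraries. It was also at 0 in every copper deficiency and control library. Whether reads were split differently between GLT1 and ACBP1 in double deficiency was not tested, so the fall of GLT1 carries this limit. The entry over GLU1 is that of BHLH101, a gene of the leaf iron deficiency list, and reads 0 in all 8 libraries. That 0 may be a failed estimate, and whether reads of BHLH101 were counted to GLU1 was not tested. The fall of GLU1 therefore carries a like limit. Of the 6 nitrate and ammonium genes tested, GLU1 was the one called, while 0.198% of all genes tested were called lower. GLN1;1, a cytosolic glutamine synthetase, read 97.7 and 101 FPKM against 67.3 and 71.2 FPKM (0.51 ± 0.30, adjusted p 0.394), and the nitrate reductase gene NIA2 read 217 and 186 FPKM in double deficiency against 268 and 298 FPKM in iron deficiency (-0.49 ± 0.12, adjusted p 0.106). SUC2, which loads sucrose into the phloem, read 34.4 and 36.5 FPKM in double deficiency and 65.5 and 75.5 FPKM in iron deficiency. Copper deficiency and control libraries gave 63.6 to 76.6 FPKM, so the low values were those of the double deficiency leaves (-0.97 ± 0.11, adjusted p 0.0152). The other 5 phloem markers were not called, and SWEET11, a sucrose exporter, read 102 and 111 FPKM against 60.1 and 84.8 FPKM (0.57 ± 0.17, adjusted p 0.151).

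The rest of the 11 lower genes shared no list. MIPS1, which makes the precursor of inositol, read 95.9 and 113 FPKM in double deficiency against 189 and 209 FPKM in iron deficiency and 208 to 224 FPKM with iron (-0.93 ± 0.11, adjusted p 0.0199, limma). The glycine-rich protein gene AT1G67870 fell to 77.0 and 64.5 FPKM in double deficiency, against 143 and 153 FPKM in iron deficiency (-1.05 ± 0.13, adjusted p 0.0244). The leucine-rich repeat gene AT1G49750 read 60.6 and 50.8 FPKM against 102 and 122 FPKM (-0.99 ± 0.15, adjusted p 0.0451). The groups were apart in each of them, and with iron AT1G67870 was higher again, at 230 to 280 FPKM. The receptor kinase gene RK3 read 3.27 and 2.66 FPKM in double deficiency against 8.17 and 7.07 FPKM in iron deficiency (-1.12 ± 0.18). The glycosyl hydrolase gene AT3G47010, whose entry overlaps that of AT3G47000, read 3.85 and 3.67 FPKM against 8.17 and 7.69 FPKM (-0.91 ± 0.12, adjusted p 0.027). UMAMIT20, of a family of amino acid transporters, read 22.7 and 23.4 FPKM against 37.7 and 36.3 FPKM, with 10.8 to 12.6 FPKM in the leaves with iron, and was the 1 lower gene whose double deficiency mean lay between iron deficiency and control (-0.66 ± 0.10, adjusted p 0.0475).

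The gene lists held 9 of the 180 genes called higher, in 4 lists. Of the 19170 genes tested, 218 were called (1.14%), 180 higher (0.939%) and 38 lower (0.198%). Under median-ratio and quantile scaling the medians of the WRKY and ERF, CC-type glutaredoxin, jasmonate, cell wall and respiration lists remained above the median of all genes, and those of the zinc, sulfur and root-type iron uptake lists below it. Among WRKY and ERF stress factors 4 of 11 tested members rose, with a list median of 1.2 and 10 members above the median of all genes. ERF104 read 19.8 and 12.1 FPKM in double deficiency against 3.02 and 3.95 FPKM in iron deficiency (1.89 ± 0.27, adjusted p 0.0405, limma). ERF6 read 7.48 and 6.58 FPKM against 1.60 and 1.52 FPKM (1.65 ± 0.20, adjusted p 0.0217), ERF5 read 8.99 and 6.90 FPKM against 2.22 and 1.79 FPKM (1.57 ± 0.23, adjusted p 0.041), and ERF2 read 20.3 and 18.7 FPKM against 7.46 and 7.19 FPKM (1.3 ± 0.16, adjusted p 0.0267). These factors bind ethylene-responsive promoters, and in each of the 4 the double deficiency libraries were above the other 6. With median-ratio scaling 1 of the 4, ERF6, was still called, and with quantile normalization 3. ERF1A read 24.1 and 15.9 FPKM against 8.87 and 5.39 FPKM (1.38 ± 0.28, adjusted p 0.0819).

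Among 15 tested reactive oxygen genes ZAT10 and ZAT12 rose, the list median was 0.29, and both stayed called under median-ratio and quantile scaling. ZAT12, a zinc finger regulator of oxidative stress responses, read 75.3 and 81.2 FPKM in double deficiency against 24.4 and 28.4 FPKM in iron deficiency, and 1.73 to 2.72 FPKM in the leaves with iron. As with ZAT10, the levels were stepped (1.54 ± 0.13, adjusted p 0.00577, limma). BAP1, an inhibitor of cell death, read 2.74 and 2.43 FPKM in double deficiency against 1.1 and 0.901 FPKM in iron deficiency (0.84 ± 0.21, adjusted p 0.108). OXI1, a kinase activated by hydrogen peroxide, read 15.2 and 17.38 FPKM against 8.15 and 10.8 FPKM (0.73 ± 0.19, adjusted p 0.108). Among 22 tested jasmonate genes JAZ6 and JAZ2 rose, both repressors of jasmonate signalling that jasmonate itself induces, and the list median was 0.49 with 17 members above the median of all genes. JAZ6 read 81.1 and 70.4 FPKM in double deficiency against 41.2 and 32.0 FPKM in iron deficiency (1.04 ± 0.15, adjusted p 0.0375), and JAZ2 read 55.5 and 48.0 FPKM against 29.2 and 31.3 FPKM (0.75 ± 0.11, adjusted p 0.0375). The groups did not overlap in either gene, but neither call held under median-ratio or quantile scaling. JAZ9 read 204 and 210 FPKM against 90.9 and 91.3 FPKM (1.18 ± 0.20, adjusted p 0.0612), and the storage protein gene VSP1 read 76.0 and 24.1 FPKM against 19.6 and 10.6 FPKM (1.5 ± 0.66, adjusted p 0.265).

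All 9 tested members of the CC-type glutaredoxin list were above the median of all genes. These glutaredoxins are a plant class with adjacent cysteines in the active site. In each of the 9, both double deficiency libraries were above both iron deficiency libraries, a separation that 45% of all weighted genes showed. Their list median was 0.91 and none of the 9 was called. The list was not checked to hold every member of the class, so the lack of calls holds for the list only. It does not hold AT3G21460 and AT3G62930, and whether these belong to the class was not checked. They were the 2 called among 56 genes that RefSeq names as glutaredoxins or thioredoxin superfamily members, a grouping made after the values were seen. AT4G15660 read 12.3 and 6.61 FPKM in double deficiency against 2.1 and 1.84 FPKM in iron deficiency (1.76 ± 0.33, adjusted p 0.0685, limma), and AT4G15670 read 8.98 and 9.39 FPKM against 2.07 and 2.60 FPKM (1.62 ± 0.30, adjusted p 0.0685). AT4G15680 had the largest value of the list (2.25 ± 0.55, adjusted p 0.105), and these neighbouring genes are near copies among which reads may be split. Among 18 cell wall expansion genes XTH24, which cuts and rejoins xyloglucan, rose to 323 and 315 FPKM in double deficiency, against 150 and 146 FPKM in iron deficiency and 86.3 to 139 FPKM with iron (1.11 ± 0.14, adjusted p 0.0279). Under median-ratio scaling it was not called. XTH22 read 40.9 and 29.6 FPKM against 12.4 and 4.56 FPKM (2.05 ± 0.41, adjusted p 0.0785). XTH18 read 2.76 and 3.48 FPKM against 0.97 and 0.662 FPKM (1.18 ± 0.24, adjusted p 0.0807), and the list median was 0.56.

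No gene of the respiration or sulfur lists was called. Outside the lists, AT2G34120, of a cytochrome c oxidase subunit family, was called. It was listed at 0 in double deficiency against 6.07 and 10.4 FPKM in iron deficiency, and no fold is given for it. Of 8 genes of alternative respiration and cytochromes 7 were above the median of all genes, with a list median of 0.49. COX6B, a subunit of cytochrome c oxidase, read 86.5 and 85.5 FPKM in double deficiency against 61.5 and 60.6 FPKM in iron deficiency (0.49 ± 0.08, adjusted p 0.0564, limma). CYTC-1, a cytochrome c gene, read 325 and 302 FPKM against 213 and 232 FPKM (0.49 ± 0.09, adjusted p 0.0749), and CYTC-2, the other one, 48.6 and 52.4 FPKM against 23.56 and 35.2 FPKM (0.79 ± 0.19, adjusted p 0.1). AOX1D, an alternative oxidase that bypasses the copper enzyme, read 9.07 and 11.1 FPKM against 3.17 and 2.06 FPKM (1.63 ± 0.49, adjusted p 0.149). Of 12 sulfur starvation and assimilation genes 11 were below the median of all genes, with a list median of -0.27. LSU1, a marker of low sulfur, read 3.98 and 5.51 FPKM in double deficiency against 15.8 and 16.6 FPKM in iron deficiency (-1.59 ± 0.28, adjusted p 0.0619), and SDI1, a repressor of glucosinolate synthesis, read 2.32 and 2.60 FPKM against 8.14 and 4.91 FPKM (-1.09 ± 0.23, adjusted p 0.0855). Neither gene overlapped between the groups.

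**Figure D3:**
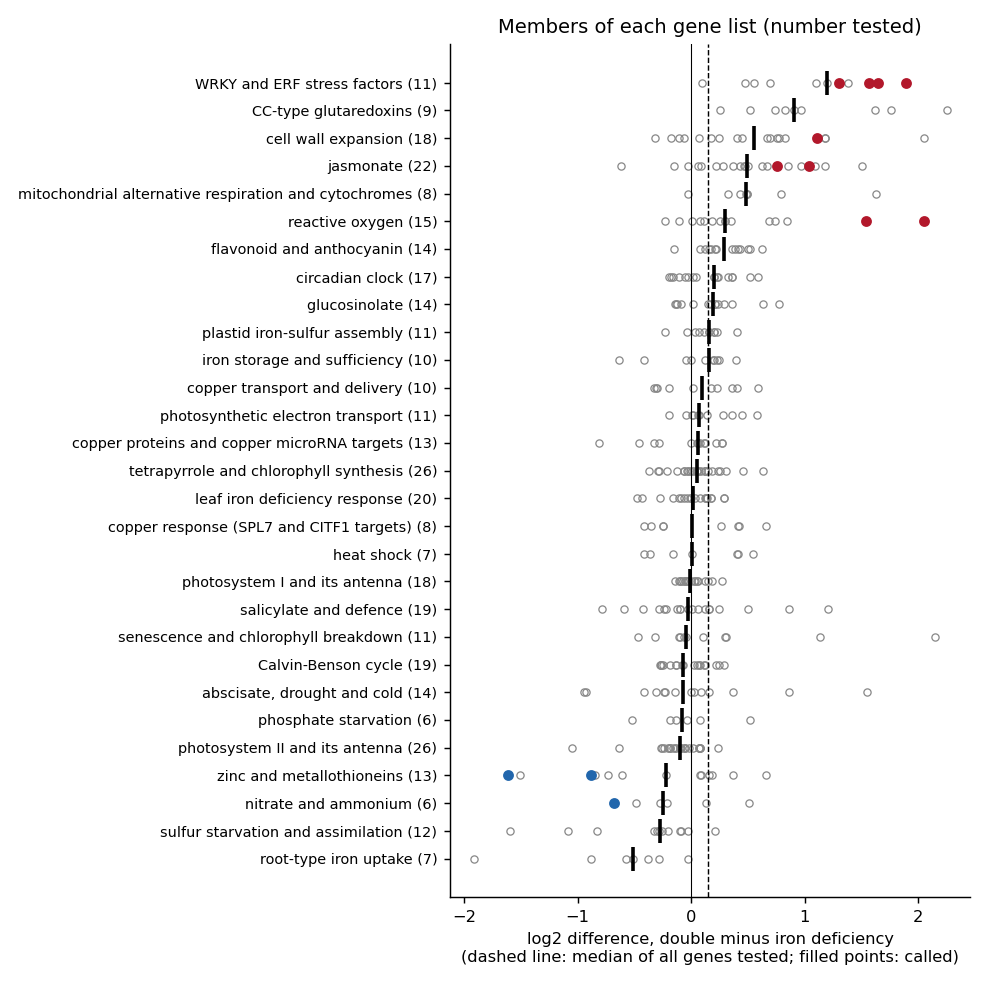
Log2 difference of double minus iron deficiency (horizontal axis) for every tested member of each gene list (rows, number tested in brackets), with a thick bar at the list median and a dashed line at the median of all genes tested, 0.15. Filled red points were called higher and filled blue points lower. WRKY and ERF stress factors had the highest list median at 1.2 and root-type iron uptake genes the lowest at -0.51.

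No gene of the copper lists was called. Of 18 genes of the SPL7 copper response 8 could be tested, and the median was 0.01. In 7 of these 8 the double and iron deficiency libraries did not overlap, 4 with double deficiency above and 3 with it below, against 45% and 13% of all weighted genes. None of the 13 tested copper proteins and copper microRNA targets (median 0.06) and none of the 10 tested genes of copper transport and delivery (median 0.10) was called. COPT2, a copper uptake transporter, read 10.4 and 12.7 FPKM in double deficiency against 5.43 and 8.71 FPKM in iron deficiency, with 5.11 and 6.22 FPKM in copper deficiency and 4.55 and 2.48 FPKM in the control. Double deficiency was the highest group without overlap, but the difference of 0.66 ± 0.29 had a 95% interval of -0.04 to 1.37 and an adjusted p of 0.269 (limma). SPL7 itself read 10.4 and 9.23 FPKM against 11.1 and 12.6 FPKM (-0.25 ± 0.15, adjusted p 0.405). The copper chaperone gene CCH read 137 and 137 FPKM against 160 and 167 FPKM (-0.25 ± 0.14, adjusted p 0.379). COPT6, a copper transporter, read 54 and 62 FPKM against 42.4 and 43.6 FPKM (0.42 ± 0.24, adjusted p 0.373). Among the copper proteins the laccase genes differed most, LAC3 at 0.0837 and 0.546 FPKM against 1.86 and 0.803 FPKM (-0.81 ± 0.45, adjusted p 0.363) and LAC4 at 2.82 and 2.29 FPKM against 3.61 and 4.14 FPKM (-0.46 ± 0.23, adjusted p 0.322). HCC1, needed to build cytochrome c oxidase, read 11.4 and 13 FPKM against 6.97 and 8.63 FPKM (0.58 ± 0.16, adjusted p 0.127), and AT1G02410 read 22.5 and 20.5 FPKM against 17 and 15 FPKM (0.41 ± 0.10, adjusted p 0.112). AT1G71200, a basic helix-loop-helix gene of the copper response, was at or under 0.0854 FPKM in all 8 libraries and was not tested.

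The superoxide dismutase genes, which exchange metals under copper shortage, did not pass the test in any of these comparisons. FSD1 read 0.327 and 0.894 FPKM in double deficiency and 1.83 and 0.460 FPKM in iron deficiency, against 734 and 711 FPKM in copper deficiency and 400 and 256 FPKM in the control. Both groups without iron were near 0 and overlapped (-0.36 ± 0.36, adjusted p 0.614, limma). CSD2, the plastid copper/zinc enzyme, read 711 and 738 FPKM in double deficiency against 668 and 789 FPKM in iron deficiency, a difference of 0.00 ± 0.18 with a 95% interval of -0.44 to 0.44. With iron it read 322 and 355 FPKM in copper deficiency against 595 and 847 FPKM in the control (-1.07, adjusted p 0.301). CSD1, the cytosolic enzyme, read 688 and 599 FPKM in double deficiency against 513 and 548 FPKM in iron deficiency, with a 95% interval of the difference of -0.03 to 0.58, and 301 and 349 FPKM in copper deficiency against 449 and 510 FPKM in the control. CCS, the chaperone that loads copper into both enzymes, read 184 and 181 FPKM against 163 and 187 FPKM without iron (0.06, 95% interval -0.35 to 0.48), and 57.0 and 71.0 FPKM in copper deficiency against 99.7 and 133 FPKM in the control. So for CSD2, CSD1 and CCS copper deficiency was the lowest of the 4 groups, and each library without iron lay above it. The interaction, the difference between the effect without iron and that with iron, was 1.06 for CSD2, 0.84 for CSD1 and 0.91 for CCS, with adjusted p of 0.192, 0.156 and 0.212, so it was not called.

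The messages of these 3 genes are targets of miR398, whose mature sequence is printed with its seed, bases 2 to 8, in capitals (chr5:4691107-4691127, plus strand, TAIR10.1, in DNA letters). Below it stand the 21-base stretches of the annotated transcripts that pair best with it when no gap is allowed, with the bases that form Watson-Crick pairs in capitals.
ath-miR398b-3p: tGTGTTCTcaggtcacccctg
CSD1: aAGGGGTttCCTGAGAtCACA
CCS: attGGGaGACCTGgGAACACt
CSD2: tgcGGGTGACCTGgGAAacat
The CSD1 stretch formed 17 pairs and spans a splice junction, the CCS stretch (chr1:4267521-4267541, minus strand) formed 15, and the CSD2 stretch (chr2:12015572-12015592, plus strand) formed 13 besides 3 G-U pairs. The microRNA precursor genes could not be followed in these libraries. MIR398A, MIR398B, MIR408 and MIR397A were listed at 0 in all 8 libraries, and MIR398C and MIR397B each had a value in a single library.

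No gene of the iron response lists was called. Of 20 tested genes of the leaf iron deficiency response the median was 0.02. BHLH39 read 385 and 402 FPKM in double deficiency against 346 and 375 FPKM in iron deficiency (0.13 ± 0.12, adjusted p 0.57, limma), and under 0.34 FPKM in all 4 libraries with iron. BHLH38 read 703 and 730 FPKM against 626 and 678 FPKM and BHLH100 read 553 and 584 FPKM against 631 and 638 FPKM, both factors of the same subgroup. AT1G47400, an IMA peptide gene, read 682 and 704 FPKM against 594 and 634 FPKM. FRO3, a mitochondrial iron reductase gene, read 247 and 250 FPKM against 244 and 253 FPKM, with a 95% interval of the difference of -0.73 to 0.73. OPT3, a phloem iron transporter, read 437 and 411 FPKM against 561 and 581 FPKM (-0.43 ± 0.23, adjusted p 0.343), and BTS, which limits the response, read 238 and 215 FPKM against 316 and 316 FPKM (-0.48 ± 0.38, adjusted p 0.514). Ferritin FER1 read 8.64 and 7.82 FPKM against 6.36 and 7.87 FPKM, and 54.3 to 92.4 FPKM with iron. The intervals are wide enough that moderate differences in these genes were not detectable with 2 libraries a group.

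Genes known from root iron uptake were found at low level in these leaves. All 7 tested members lay below the median of all genes, with a list median of -0.51 and no call. IRT1, the root iron transporter, read 5.49 and 3.73 FPKM in double deficiency against 9.89 and 8.53 FPKM in iron deficiency, and at most 0.33 FPKM with iron (-0.88 ± 0.24, adjusted p 0.121, limma). FRO2, the root ferric reductase, read 9.33 and 10.09 FPKM against 14.7 and 15.2 FPKM, and at most 0.916 FPKM with iron (-0.58 ± 0.17, adjusted p 0.145). F6'H1, which makes coumarins that mobilise iron, was listed at 0 and 1.37 FPKM against 3.92 and 5.86 FPKM (adjusted p 0.261). Double deficiency was below iron deficiency without overlap in 6 of the 7, against 13% of all weighted genes. Root marker sums overlapped between the groups, but rest on PYK10. Of the other 5 root markers, COBL9 read 0.205 and 0.124 FPKM in double deficiency against 0.482 and 0.483 FPKM in iron deficiency, PRP3 0.0592 and 0.0672 FPKM against 0.321 and 0.162 FPKM, WER overlapped, and EXPA7 and CASP1 were at 0 in both groups. Their part in the result was not tested. No photosynthesis gene of the lists was called. Medians were -0.01 for 18 genes of photosystem I, -0.10 for 26 of photosystem II and -0.07 for 19 of the Calvin-Benson cycle, with 15, 25 and 16 members below the median of all genes in that order. Under quantile normalization the median of photosystem I was 0.02, above that of all genes. LHCB4.3, an antenna protein of photosystem II, read 9.94 and 17.0 FPKM against 29.2 and 26.8 FPKM (-1.05 ± 0.23, adjusted p 0.0894), and LHCB2.4 read 215 and 261 FPKM against 325 and 420 FPKM (-0.64 ± 0.16, adjusted p 0.109). Plastocyanin, the copper protein of photosynthetic electron transport, read 355 and 339 FPKM against 302 and 358 FPKM for PETE1, and 1221 and 1319.5 FPKM against 1127 and 1337 FPKM for PETE2.

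**Figure D4:**
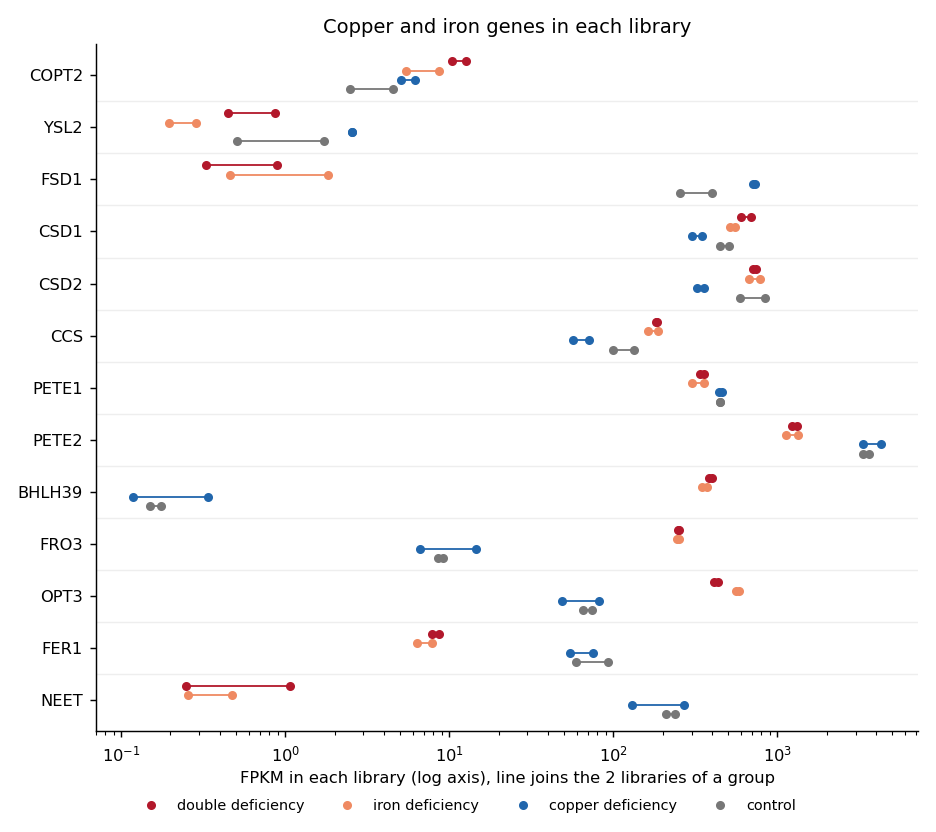
FPKM of each library (horizontal log axis) for copper genes (top) and iron genes (bottom), one point per library and a line joining the 2 libraries of a group. For CSD1, CSD2 and CCS the blue copper deficiency points are the lowest, while the red double deficiency and orange iron deficiency points lie together. FSD1 is near 0 in both groups without iron.

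Copper removal with iron present gave a different set of values. In copper deficiency against control 0 of the 17242 weighted genes were called (0%) in limma's test, and 809 had an unadjusted p under 0.05. Among all 19170 genes 35 were called (0.183%), 21 higher (0.11%) and 14 lower (0.073%), and all of them lay outside the weighted set. The 130 genes called higher in double against iron deficiency had a median log2 difference of -0.03 in copper deficiency against control, and the 11 called lower a median of -0.04. Of the 141 genes, 133 differed by less than 0.5 in either direction with iron. The share of all weighted genes under 0.5 was not counted. Their median difference with iron was 0.02, so small differences are not shown to be particular to the 141. The 2 comparisons share no library. The interaction was called for 113 of all genes (0.589%), 76 higher (0.396%) and 37 lower (0.193%). Among weighted genes it was called for 34 (0.197%), 31 higher (0.18%) and 3 lower (0.0174%). The weighted count was 1 without either double deficiency library, 6 and 8 without iron deficiency library 1 or 2, 9 and 3 without control library 1 or 2, and 29 and 26 without copper deficiency library 1 or 2. It was called for 30 of the 141 genes, so for the other 111 the 2 effects of copper removal were not shown to differ. AT3G21460 had an interaction of 2.48 ± 0.21 (adjusted p 0.00544) and HSPRO2 of 2.34 ± 0.21 (adjusted p 0.00789). ZIP4 had one of -2.01 ± 0.20 (adjusted p 0.0148), since its level was 7.61 and 6.22 FPKM in copper deficiency against 4.85 and 5.16 FPKM in the control, the opposite order. SUC2 had one of -1.12 ± 0.15 (adjusted p 0.0429). The largest interaction among the weighted genes, picked out after the values were seen, was that of BCB, which encodes a blue copper-binding protein of the cell surface. BCB read 209 and 199 FPKM in double deficiency against 71.9 and 62.3 FPKM in iron deficiency, and 8.77 and 17.3 FPKM in copper deficiency against 32.3 and 43.1 FPKM in the control. Its order was thus reversed between the 2 iron supplies, with an interaction of 3.11 ± 0.42 (adjusted p 0.0438), while its difference of 1.59 without iron missed the threshold (adjusted p 0.0685).

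**Figure D5:**
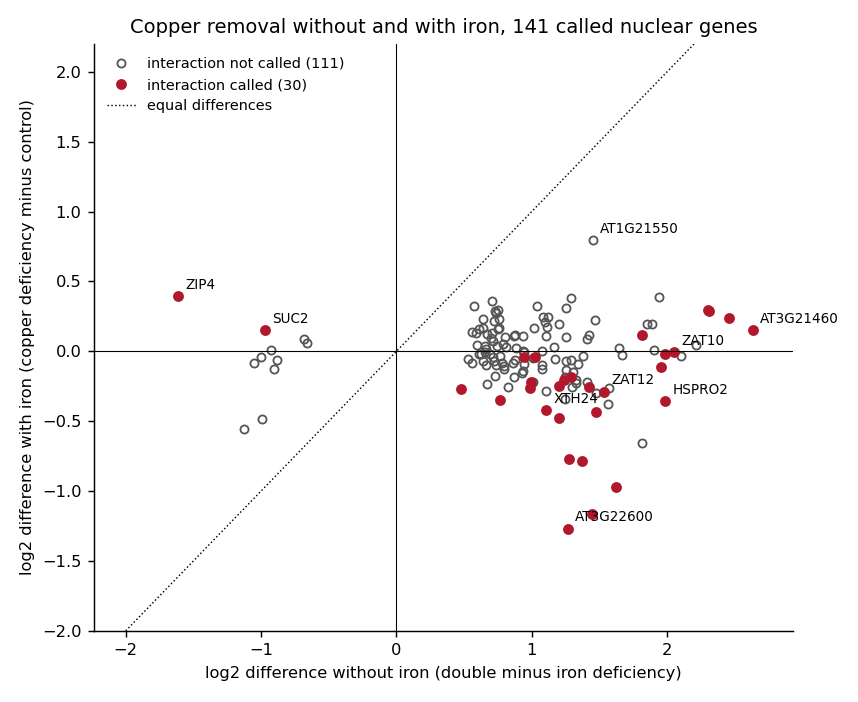
Log2 difference on copper removal without iron (double minus iron deficiency, horizontal axis) against that with iron (copper deficiency minus control, vertical axis) for the 141 called nuclear genes. Filled points are the 30 genes whose interaction was called, the dotted line marks equal differences, and most points lie near 0 on the vertical axis.

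Outside the weighted set 77 further genes were called, and 73 of these were listed at 0 in both libraries of one of the groups compared, 27 in double deficiency and 46 in iron deficiency. Of the 77, 50 were nuclear protein-coding genes with a span of at least 300 bp. The examples that follow were picked for their large values and are not typical of the set. The small nucleolar RNA AT2G05765 was listed at 0 in double deficiency and at 5298 and 4702 FPKM in iron deficiency, and the chloroplast entry ATCG00290 at 0 against 3049 and 5436 FPKM. The transfer RNA gene AT5G32017 was listed at 0 against 380 and 6781 FPKM, and the small nucleolar RNA AT4G39361 at 1509.8 and 336 FPKM in double deficiency against 0 in iron deficiency. The first 3 were listed at 0 in all 4 libraries with iron as well. A listed 0 in such a file can be a failed estimate, and no fold is given for these entries.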

How the data were processed

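Total RNA of rosette leaves was sequenced from 8 libraries in 4 groups of 2, and the labels do not say whether replicates came from separate cultures, so the p-values measure the spread between these libraries only. Each deposited table holds the FPKM of 1 library, gene by gene. Per the submitters' processing notes, Trimmomatic, TopHat2 2.1.1, Cufflinks and Cuffdiff were used. Neither their settings nor a genome build is given in the sources used here. Of the identifiers, 99.2% were found in TAIR10.1 (RefSeq), and 99.9% of these had the same start and end there, so names, products and sequences were taken from it. Read totals are not in these files. The width of the deposited FPKM bounds over 10492 genes gave a relative depth of 0.915 and 0.938 in double deficiency, 0.858 and 1 in iron deficiency, 0.753 and 0.926 in copper deficiency and 0.801 and 0.723 in the control.

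Values were tested as log2(FPKM + 1) with limma 3.58.1 (trended variance) in R 4.3.3, in a model of the 4 groups with 4 residual degrees of freedom, for the 19170 genes at 1 FPKM or more in at least 2 libraries, after dropping 1 entry with a failed status. Contrasts were double minus iron deficiency, copper deficiency minus control, and the difference of these (the interaction). Called means a Benjamini-Hochberg adjusted p under 0.05 over all genes tested. SE is that of the log2 difference. Named genes are the 10 largest called differences per direction, the members of each list with the largest absolute difference, called list members and a panel of copper and iron genes. Others are said to be chosen after their values were seen. The members and the 36 gene lists were chosen with earlier results of these data known. Identifiers without a symbol are printed as such. The fitting code was tested on simulated data. Alternatives were pseudocounts of 0.1 and 0.5 FPKM, other filters, 3 other scalings, fits on fewer libraries or genes, variance settings, each library left out, and the replicate number as a block.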

Additional observations from a re-analysis of the deposited data

Results flagged for a closer look

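The effect of copper removal without iron was called different from that with iron, by limma's interaction test, in 113 of 19170 genes tested (0.589%). Of these, 34 were weighted nuclear genes. The others lay outside the weighted set, where 73 of the 77 genes called in double against iron deficiency were listed at 0 in a whole group. Among the named genes the interaction (double minus iron deficiency, less copper deficiency minus control) was positive and called for AT3G21460 (2.48), HSPRO2 (2.34), ORA47 (2.22), AT3G62930 (2.07), ZAT10 (2.06), AT5G21940 (2.02), OXS3 (2.01), TEM1 (2.00), ZAT12 (1.82) and XTH24 (1.53). It was negative and called for ZIP4 (-2.01) and SUC2 (-1.12). In all 12 genes both libraries of double deficiency lay beyond both of iron deficiency, as they did in all 141 called genes. Of all weighted genes, 45% had double deficiency above and 13% had it below in this way. Copper deficiency was called against control in none of the 12, but also in 0 of the 17242 weighted genes. Neither point is therefore particular to these 12.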

How the results depend on the processing

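No called named gene changed sign under any alternative run. Uncalled list medians near 0 did, with the copper response at 0.01 but -0.13 and the leaf iron response at 0.02 but -0.13 under median-ratio scaling. All genes called in double against iron deficiency numbered 218, against 81 with those 4 libraries alone, 748 on weighted nuclear genes alone, 373 with robust variance and 133 with the replicate block (57 to 178 when a library was left out). Weighted genes called higher numbered 130, against 77 with no filter, 54 with median-ratio scaling, 85 with quantile normalization, 11 with the 4 libraries alone, 668 on weighted genes alone, 264 robust and 64 with the replicate block (3 to 91 when a library was left out). Weighted genes called lower numbered 11, against 4, 42, 86, 0, 80, 25 and 5 in the same order, 7 without a variance trend and 111 with median-ratio scaling on weighted genes alone, an alternative chosen after seeing the data (0 to 11 when a library was left out). For the interaction, 113 became 58 with a filter of 5 FPKM, 68 with the replicate block and 38 with median-ratio scaling on weighted genes (66 to 140 when a library was left out). For copper deficiency against control, 35 became 23 with the 5 FPKM filter and 0 in both fits on weighted genes (35 to 99 when a library was left out, the highest without copper deficiency library 1). Numbers 1 and 2 are not tied to a shared batch or culture in the labels, so the block is given here only. The titles carry the letters A and B, but B and C for copper deficiency, and the block follows the numbers, not the letters. The r of deviations between double and iron deficiency was 0.02 over all genes and 0.16 over weighted genes. Among all pairs of groups, r over weighted genes ran from 0.089 (double and copper deficiency) to 0.195 (copper deficiency and control). The block called 69 weighted genes in place of 141, and 12 for the interaction in place of 34. Of the 28 named called genes, 23 lost the call with the 4 libraries alone, 14 with no filter, 13 with the replicate block and 7 with median-ratio scaling. With 4 residual degrees of freedom, and no read totals to set the counting error of low genes, smaller differences were not detectable.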

Other observations

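Grouping the weighted genes by RefSeq product, a choice made after the values were seen, added families to the rises. Matching by product text can miss members of a family and can take in genes outside it, so the counts cover matched genes only. RAV1, called higher at 1.31, was not among the matched AP2-domain genes. Among 89 AP2-domain factors 10 were called higher, against 0.754% of all weighted genes (median 0.28 against 0.15 for weighted genes), and 5 with median-ratio scaling. Beside the ERF genes, ORA47 and TEM1 these included RAV2, a relative of TEM1, at 29.6 and 26.6 FPKM in double deficiency against 7.72 and 8.60 FPKM in iron deficiency (1.67 ± 0.17, adjusted p 0.013, limma). Among 76 genes whose product names an EF hand or calmodulin 4 rose, and 3 with median-ratio scaling. Of these, TCH2, a calmodulin-like protein, read 61.7 and 51.6 FPKM against 22.4 and 18.9 FPKM (1.41 ± 0.15, adjusted p 0.0148). Among 42 bZIP factors 3 rose, and 2 with median-ratio scaling, among them BZIP53 at 47.9 and 45.1 FPKM against 23.9 and 26.5 FPKM. Among 349 ribosomal proteins 8 rose and none fell, and 4 were called higher with median-ratio scaling, with a family median of 0.44, or 0.30 with median-ratio scaling. RPL23AA read 459 and 428 FPKM against 255 and 291 FPKM (0.70 ± 0.10, adjusted p 0.034).

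GASA1 and MEE3 were also chosen after their values were seen. GASA1, a gibberellin-regulated cell wall peptide gene, was among the called genes of higher level, at 811 and 773 FPKM in double deficiency against 259 and 312 FPKM in iron deficiency (1.47 ± 0.12, adjusted p 0.00545, limma). MEE3, a MYB-like factor, read 2.95 and 2.37 FPKM in double deficiency against 0.266 and 0.672 FPKM in iron deficiency, and 25.7 to 34.1 FPKM with iron, so its rise left it far below the level with iron (1.33 ± 0.18, adjusted p 0.0344). Of 19 salicylate and defence genes none was called (median -0.03), and of 17 circadian clock genes none (median 0.20).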
